A study of Mus musculus with 17 samples.

Results

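RANK ligand and the Wnt proteins carry the progesterone signal from hormone-sensing mammary cells to their neighbours, and 10 genes of these 2 pathways are described here across 4 mouse genotypes. They are the RANK ligand Tnfsf11, its receptor Tnfrsf11a (RANK) and its decoy receptor Tnfrsf11b (osteoprotegerin), the Wnt ligands Wnt4, Wnt5a, Wnt5b and Wnt2, the Wnt potentiator Rspo1, the secreted Wnt inhibitor Sfrp1 and the β-catenin target gene Axin2. Their rows were chosen by gene symbol in the authors' deposited table. The 10 symbols had 11 loci, since Wnt4 was listed at 2, out of 30843 loci in the table, and all 11 passed the filter on low values.

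The glands came from nulliparous female C57Bl/6 mice of 4 genotypes. BRCA mice (Brca1fl11/fl11/MMTV-Cre/p53+/-) lose exon 11 of Brca1 where the mouse mammary tumour virus promoter drives Cre, mainly in mammary epithelium, and carry 1 functional Trp53 allele. CERM mice (tet-op-Esr1MMTV-rtTA) over-express Esr1, the estrogen receptor α, and AROM mice (tet-op-CYP19A1MMTV-rtTA) over-express human CYP19A1, the aromatase that makes estrogens from androgens. In both, the transgene sits behind a tetracycline operator that the rtTA protein, driven by the same viral promoter, activates. WT mice were wild type. The sources used here give neither the age of the mice nor any doxycycline treatment. The labels list 17 libraries of polyadenylated RNA, 8 single-end (2 of each genotype) and 9 paired-end (2 BRCA, 3 CERM, 3 AROM and 1 WT).

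In the mouse mammary gland, progesterone acts on luminal cells that carry its receptor, and these cells release RANK ligand and Wnt4 to reach receptor-negative luminal and basal cells. RANK ligand binds RANK on the receiving cell and starts NF-κB signalling, unless osteoprotegerin captures it first. Wnt ligands bind Frizzled receptors, R-spondins prolong that signal by removing the ubiquitin ligases that clear Frizzled, and stabilised β-catenin then switches on targets such as Axin2, which feeds back to shut the pathway down.

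The authors' table gives FPKM, the number of fragments per kilobase of transcript scaled to the total of mapped fragments, in 8 columns, 1 for each genotype and read layout. Each column pools the libraries of its group, so no value has a replicate spread, no difference could be tested, and the depth behind each value is unknown. Instead, a locus was counted as different where log2(FPKM + 1) was at least 2-fold apart the same way in the single-end and in the paired-end columns. Per the labels' protocols the libraries were sequenced by both methods, so the layouts may hold the same RNA and are not independent replicates. In the WT columns 46.7% of single-end and 43.3% of paired-end values had repeating decimals, as means of 3 values would, although the labels list 2 and 1 such libraries; every comparison with WT carries this uncertainty, and all 3 of them share the WT columns. The median absolute difference between the layouts, on the log2(FPKM + 1) scale, was 0.0606 in BRCA, 0.166 in CERM, 0.290 in AROM and 0.159 in WT over all 13125 loci tested. The AROM paired-end column stood apart. Its FPKM over all loci summed to 119835349, against at most 6243130 in any other column, and its median over loci tested, 6.78, was the lowest. Paired-end minus single-end had a median of -0.24 in AROM and -0.13 in WT, so paired-end AROM values ran low. The cause was not tested. Esr1 had 8.49 and 8.41 FPKM in the single-end and paired-end columns labelled CERM, 8.41 and 7.87 in AROM and 7.27 and 6.89 in WT, so it did not set CERM apart. Trp53 was lowest in BRCA, at 12.3 and 12.1 FPKM against 41.1 and 34.5 in WT. Brca1 was higher in BRCA, at 3.28 and 3.29 FPKM against 1.13 and 0.851 in WT, but its whole-locus value does not measure exon 11. The mouse Cyp19a1 locus had 0.0591 and 0.0502 FPKM in AROM and 0 in the other genotypes, but it does not measure the human transgene.

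The starts of 3 of these genes are shown because they carry the largest differences of the set (Tnfsf11 and Rspo1) and its β-catenin readout (Axin2). Each line is a RefSeq window of build GRCm38.p6 that runs, 5′ to 3′ on the gene's strand, from 250 bases before the annotated start to 50 after it. Tnfsf11 lies on the minus strand at chr14:78307994-78308293, Rspo1 on the plus strand at chr4:124986180-124986479 and Axin2 on the plus strand at chr11:108920099-108920398. Capitals mark a match to TGTTCT, the half-site of the progesterone receptor, searched on both strands.
Tnfsf11: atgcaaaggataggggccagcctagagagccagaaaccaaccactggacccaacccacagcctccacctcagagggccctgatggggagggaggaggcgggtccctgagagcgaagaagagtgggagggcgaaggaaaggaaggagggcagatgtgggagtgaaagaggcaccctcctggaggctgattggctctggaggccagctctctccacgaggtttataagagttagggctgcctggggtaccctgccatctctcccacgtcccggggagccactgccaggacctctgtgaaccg
Rspo1: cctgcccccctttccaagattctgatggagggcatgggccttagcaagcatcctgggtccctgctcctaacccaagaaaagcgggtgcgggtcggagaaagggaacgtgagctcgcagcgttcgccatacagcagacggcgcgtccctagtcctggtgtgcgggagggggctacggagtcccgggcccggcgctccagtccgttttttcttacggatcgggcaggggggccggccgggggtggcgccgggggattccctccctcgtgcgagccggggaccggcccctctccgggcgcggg
Axin2: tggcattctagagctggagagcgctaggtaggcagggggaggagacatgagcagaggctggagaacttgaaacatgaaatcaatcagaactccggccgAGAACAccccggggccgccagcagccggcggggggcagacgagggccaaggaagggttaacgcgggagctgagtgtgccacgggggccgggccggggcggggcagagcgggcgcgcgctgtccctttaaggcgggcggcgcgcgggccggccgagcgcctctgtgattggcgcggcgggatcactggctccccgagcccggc
The single match stands in the Axin2 window and reads AGAACA there because it lies on the opposite strand, starting at base 99 of the window. RefSeq windows were found for 7 of the 10 genes, 9 windows in all, and not for Tnfrsf11b, Wnt5a and Sfrp1. Of the 3 Wnt5b windows, one held TGTTCT and another held CTTTGA, the site of the TCF and LEF factors that β-catenin joins. The estrogen response element, taken as GGTCA and TGACC with 3 bases between them, was in none of the 9. Among all 32851 windows of this length, 19.0% held TGTTCT, 16.0% held CTTTGA and 0.0700% held the estrogen response element on either strand. Distal enhancers lie outside such windows.

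RANK ligand had the widest range of the loci that were above 0 in every column. Tnfsf11 had 1.15 FPKM in BRCA, 7.28 in CERM, 4.83 in AROM and 15.4 in WT in the single-end columns. In the paired-end columns it had 1.12 FPKM in BRCA, 5.86 in CERM, 2.51 in AROM and 13.2 in WT. The order of the genotypes was the same in both layouts, with BRCA lowest and WT highest, and the highest of the 8 values was 13.8 times the lowest. The 2 BRCA values lay close together and below every other value. On the log2(FPKM + 1) scale, BRCA minus WT was -2.93 single-end and -2.74 paired-end, and as plain FPKM the BRCA level was 0.0744 and 0.0848 of that in WT. AROM minus WT was -1.49 and -2.02. The difference between the columns labelled CERM and WT, -0.99 and -1.05, lay on the 2-fold line, past it in the paired-end columns and just short of it in the single-end ones.

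**Figure D1:**
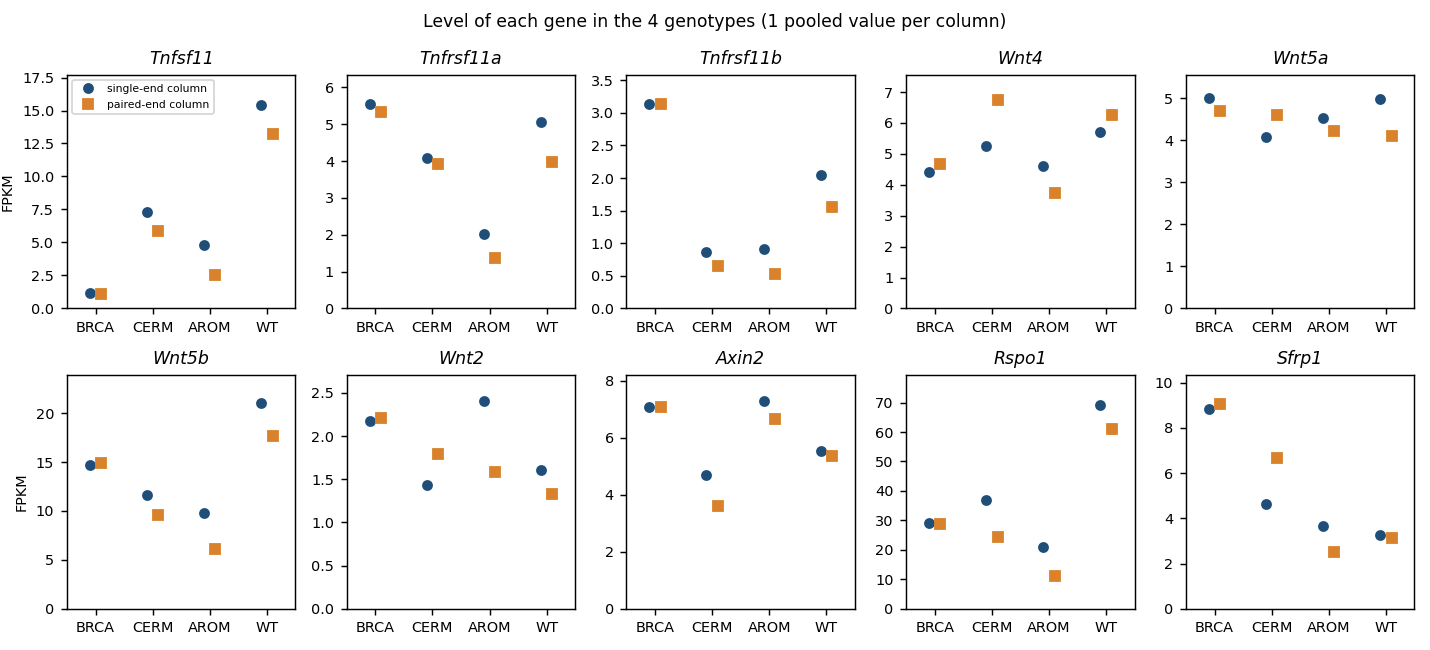
FPKM (vertical axis, from 0) of each of the 10 genes in BRCA, CERM, AROM and WT, with a circle for the single-end and a square for the paired-end column; each point is 1 pooled value with no error bar. Tnfsf11 sat between 1.12 and 1.15 FPKM in BRCA and between 13.2 and 15.4 in WT, whereas Wnt5a stayed between 4.07 and 5.01 in all 8 columns.

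The receptor and the decoy receptor did not follow the ligand. Tnfrsf11a had 5.56 FPKM in BRCA, 4.07 in CERM, 2.01 in AROM and 5.07 in WT single-end, and 5.34, 3.91, 1.37 and 3.97 FPKM in BRCA, CERM, AROM and WT paired-end. AROM was thus lowest and BRCA highest in both layouts. Tnfrsf11b had 3.13 FPKM in BRCA, 0.858 in CERM, 0.918 in AROM and 2.05 in WT single-end, and 3.13, 0.652, 0.521 and 1.56 FPKM in BRCA, CERM, AROM and WT paired-end. Osteoprotegerin was therefore highest in BRCA, next in WT, and below 1 FPKM in CERM and AROM, where the order of the 2 turned round between layouts. For RANK, AROM minus WT was -1.01 and -1.07 (log2(FPKM + 1), single-end and paired-end) and BRCA minus AROM was 1.12 and 1.42. For osteoprotegerin, BRCA minus AROM was 1.11 and 1.44, BRCA minus CERM was 1.15 and 1.32, and no comparison with WT reached 2-fold on the log2(FPKM + 1) scale. As plain FPKM, however, its level in AROM was 0.447 and 0.334 of that in WT, past 2-fold in both layouts, and with a pseudocount of 0.1 or none it was called lower there.

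Ratios of 2 genes within a column do not depend on how that column was scaled, and these pairs were chosen after their values had been seen. Tnfsf11 over Tnfrsf11b, ligand over decoy, was 0.367 in BRCA, 8.49 in CERM, 5.27 in AROM and 7.52 in WT single-end, and 0.359, 8.99, 4.81 and 8.49 in BRCA, CERM, AROM and WT paired-end. FPKM of the decoy thus exceeded FPKM of the ligand in BRCA, and the reverse held in the other 3 genotypes. Tnfsf11 over its receptor Tnfrsf11a was 0.207 in BRCA, 1.79 in CERM, 2.40 in AROM and 3.04 in WT single-end, and 0.210, 1.5, 1.82 and 3.33 in BRCA, CERM, AROM and WT paired-end. Both ratios set BRCA apart from the other genotypes, and the second was highest in WT. Tnfsf11 over Wnt4, the 2 progesterone-induced ligands, was 0.260 and 0.240 in BRCA, 1.39 and 0.871 in CERM, 1.05 and 0.667 in AROM, and 2.70 and 2.11 in WT.

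**Figure D2:**
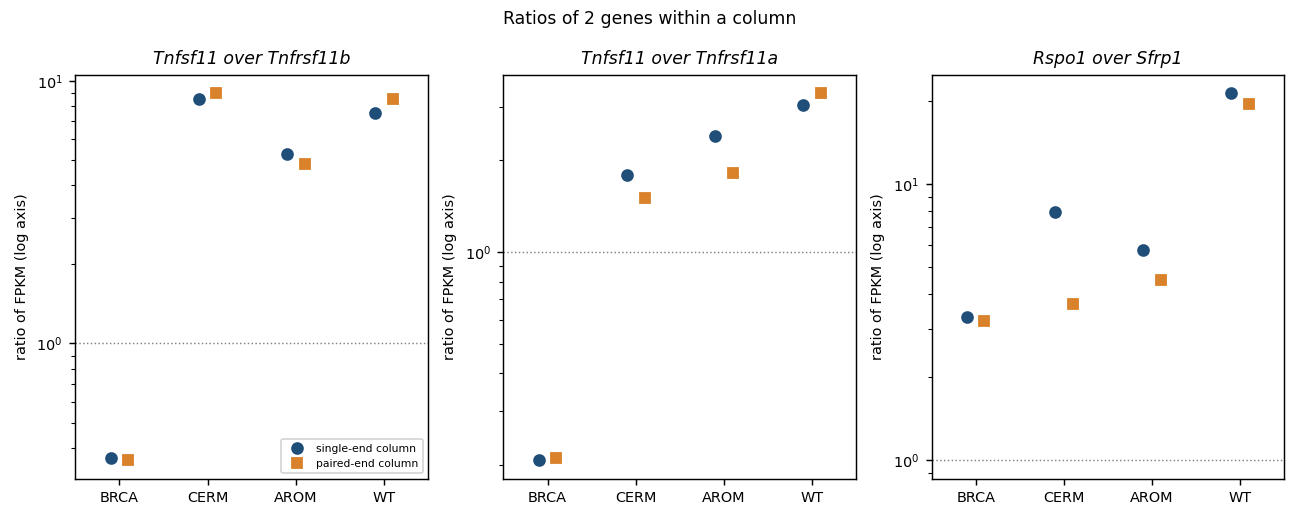
Ratio of the FPKM of 2 genes in the same column (log axis) for BRCA, CERM, AROM and WT, single-end as circles and paired-end as squares, with a dotted line where the 2 genes are equal. Tnfsf11 over Tnfrsf11b was 0.367 and 0.359 in BRCA and at least 4.81 in every other column, and Rspo1 over Sfrp1 was highest in WT, at 21.4 and 19.5.

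Among the 4 Wnt ligands of the set, Wnt5b was the most abundant per kilobase and had the widest range at its locus, apart from the second Wnt4 locus, which reached 0. Wnt5b, which mostly signals without β-catenin, had 14.7 FPKM in BRCA, 11.6 in CERM, 9.78 in AROM and 21.0 in WT single-end, and 14.9, 9.54, 6.16 and 17.7 FPKM in BRCA, CERM, AROM and WT paired-end. The order was the same in both layouts, with WT highest and AROM lowest. AROM minus WT was -1.03 and -1.39 (log2(FPKM + 1)), past 2-fold in both layouts, while the columns labelled CERM minus WT, at -0.80 and -0.83, and BRCA minus WT, at -0.48 and -0.23, fell short.

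Wnt4, the ligand that progesterone induces for ductal side-branching in mice, differed little. At its main locus (XLOC_019103) it had 4.41 FPKM in BRCA, 5.25 in CERM, 4.61 in AROM and 5.72 in WT single-end, and 4.67, 6.73, 3.75 and 6.26 FPKM in BRCA, CERM, AROM and WT paired-end. BRCA and AROM were below CERM and WT in both layouts, and no comparison reached 2-fold, the widest of the paired-end ones being CERM minus AROM at 0.70, beside 0.16 single-end. A second locus named Wnt4 (XLOC_019853) had 0.360 FPKM in BRCA, 0.903 in CERM, 1.01 in AROM and 1.30 in WT single-end, but 0 in BRCA, 0.00908 in CERM, 0 in AROM and 0.00895 in WT paired-end. Nearly all signal of this second locus was thus in the single-end columns. Of the 9 named neighbours of that locus in the table's numbering with a known strand, 8 are minus-strand genes, against 0 of 11 for the main locus. Whether the libraries kept strand was not stated in those sources, and what the second locus holds was not tested.

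Wnt5a, another ligand that mostly signals without β-catenin, was the steadiest of the 10 genes. It had 5.01 FPKM in BRCA, 4.07 in CERM, 4.54 in AROM and 4.99 in WT single-end, and 4.69, 4.60, 4.22 and 4.11 FPKM in BRCA, CERM, AROM and WT paired-end. The order of the genotypes below BRCA was not the same in the 2 layouts, and its highest value was 1.23 times its lowest. Wnt5b over Wnt5a was 2.94 and 3.18 in BRCA, 2.86 and 2.08 in CERM, 2.15 and 1.46 in AROM, and 4.20 and 4.31 in WT. Wnt2, a ligand best known from mammary stroma in mice, had 2.17 FPKM in BRCA, 1.43 in CERM, 2.41 in AROM and 1.61 in WT single-end, and 2.21, 1.79, 1.58 and 1.33 FPKM in BRCA, CERM, AROM and WT paired-end. AROM was the highest Wnt2 column single-end and below BRCA and CERM paired-end, so Wnt2 had no order common to both layouts, and no comparison of it reached 2-fold.

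Rspo1, which potentiates Wnt signals through the Lgr4, Lgr5 and Lgr6 receptors, was the most abundant gene of the set per kilobase. It had 29.1 FPKM in BRCA, 36.8 in CERM, 21.1 in AROM and 69.3 in WT single-end, and 28.9, 24.5, 11.2 and 61.2 FPKM in BRCA, CERM, AROM and WT paired-end. WT was highest and AROM lowest in both layouts, and BRCA and CERM changed places between them. AROM minus WT was -1.67 and -2.35 (log2(FPKM + 1), single-end and paired-end) and BRCA minus WT was -1.22 and -1.06. For the columns labelled CERM minus WT the values were -0.89 and -1.29, past 2-fold in the paired-end columns alone.

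Sfrp1, a Frizzled-like secreted protein that binds Wnt ligands, was highest where RANK ligand was lowest. It had 8.82 FPKM in BRCA, 4.63 in CERM, 3.64 in AROM and 3.24 in WT single-end, and 9.07, 6.68, 2.49 and 3.14 FPKM in BRCA, CERM, AROM and WT paired-end. BRCA led in both layouts, and AROM and WT were the 2 lowest, in an order that differed between layouts. BRCA minus WT was 1.21 and 1.28 and BRCA minus AROM was 1.08 and 1.53, both past 2-fold in the 2 layouts. Rspo1 over Sfrp1, potentiator over inhibitor, was 3.30 in BRCA, 7.95 in CERM, 5.79 in AROM and 21.4 in WT single-end, and 3.19, 3.67, 4.50 and 19.5 in BRCA, CERM, AROM and WT paired-end.

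Axin2, the member read most often as a sign of β-catenin activity, passed 2-fold in no comparison. It had 7.09 FPKM in BRCA, 4.71 in CERM, 7.28 in AROM and 5.53 in WT single-end, and 7.08, 3.60, 6.65 and 5.36 FPKM in BRCA, CERM, AROM and WT paired-end. BRCA and AROM were the 2 highest and CERM the lowest in both layouts. BRCA minus WT was 0.31 and 0.34, AROM minus WT was 0.34 and 0.27, and the columns labelled CERM minus WT were -0.19 and -0.47 on the log2(FPKM + 1) scale.

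**Figure D3:**
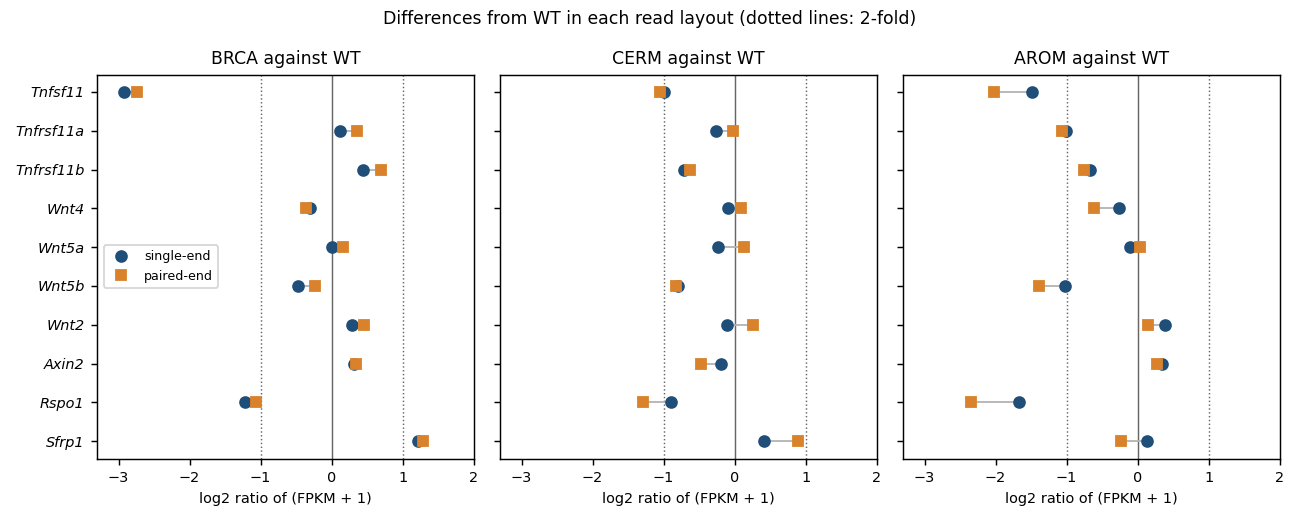
Difference from WT in log2(FPKM + 1) (horizontal axis) for each of the 10 genes in BRCA, CERM and AROM, single-end as circles and paired-end as squares joined by a line, with dotted lines at 2-fold. In AROM 4 genes lie left of the lower line in both layouts, in BRCA Tnfsf11 and Rspo1 lie left of it and Sfrp1 right of the upper one, and in CERM no gene is past a line in both layouts.

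Counted over the set, AROM against WT had 4 of the 11 loci at least 2-fold lower in both layouts, namely Tnfsf11, Tnfrsf11a, Wnt5b and Rspo1, and 0 higher. Over all loci tested 1.36% were lower and 0.373% higher by the same rule. The median difference of the 11 loci was -0.26 single-end and -0.61 paired-end, beside -0.00 and -0.08 over all loci. Markers of luminal epithelium moved with these genes: 6 of the 11 listed luminal markers with a locus of their own were at least 2-fold lower in AROM in both layouts (Cdh1, Cldn3, Cldn7, Ehf, Esrp1 and Spint2), all 11 were below WT, and none was at 0. Their summed level was 512 and 302 FPKM in AROM, against 1019.8 and 823 in WT. After median-ratio or quantile scaling Tnfrsf11a was no longer past 2-fold in both layouts, and with the mean of the 2 WT columns as reference neither it nor Wnt5b was. In bulk tissue, fewer cells of a type and less RNA per cell cannot be told apart.

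Expressed per 1000 FPKM of those summed luminal markers, a scaling chosen after the values had been seen, Tnfsf11 had 9.44 and 8.28 in AROM against 15.1 and 16.1 in WT, and Rspo1 had 41.1 and 37.1 in AROM against 68.0 and 74.4 in WT. Their AROM-to-WT ratios on this scale were 0.624 and 0.516 for Tnfsf11 and 0.605 and 0.499 for Rspo1. Tnfrsf11a and Wnt5b lay close to WT on this scale, with ratios of 0.791 and 0.942 for Tnfrsf11a and 0.927 and 0.946 for Wnt5b. On this scale Axin2 had ratios of 2.62 and 3.38, Wnt5a of 1.81 and 2.80, Wnt2 of 2.97 and 3.23, Sfrp1 of 2.24 and 2.16 and the main Wnt4 locus of 1.60 and 1.63. The ratios of Tnfrsf11b were 0.890 and 0.910. The part of the luminal markers in the AROM differences was not tested. Summed fibroblast markers were 1455 and 1179.6 FPKM in AROM against 1012 and 681 in WT, and summed white adipocyte markers 19261 and 24391 against 14196 and 10457.

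BRCA against WT had 2 of the 11 loci lower in both layouts (Tnfsf11 and Rspo1) and 1 higher (Sfrp1). Of all loci, 1.03% were lower and 2.97% higher, and all-locus medians were 0.04 and 0.10, beside 0.00 and 0.16 for the set. Summed luminal markers were 1051 and 1044 FPKM in BRCA against 1019.8 and 823 in WT. Per 1000 FPKM of them Tnfsf11 had 1.09 and 1.07 in BRCA against 15.1 and 16.1 in WT, a ratio of 0.0722 and 0.0669. That sum is of luminal markers in general and does not measure the hormone-sensing cells, whose part in the Tnfsf11 difference was not tested. Rspo1 on the same scale had 27.7 and 27.7 in BRCA against 68.0 and 74.4 in WT. Sfrp1 lay beside fibroblast markers that summed to 1494 and 1456 FPKM in BRCA against 1012 and 681 in WT, with 1 of 8, Col3a1, at least 2-fold higher in both layouts and none at 0. Their part in the Sfrp1 difference was not tested.

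**Figure D4:**
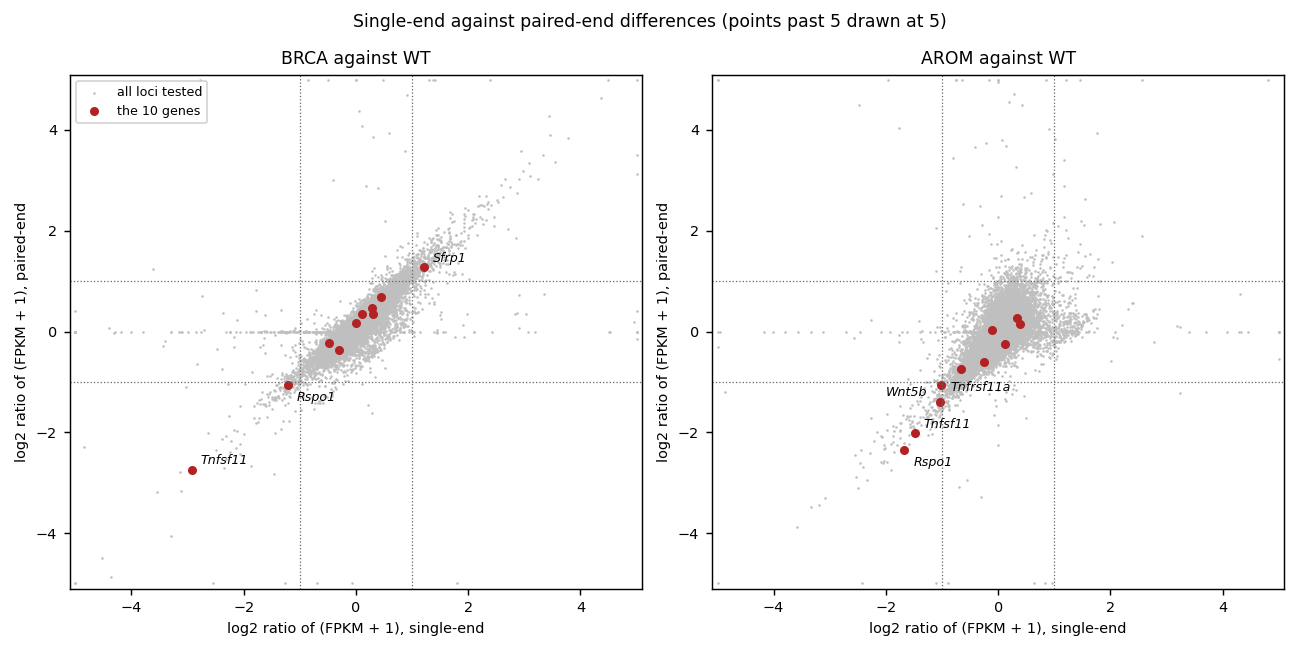
Difference from WT in log2(FPKM + 1), single-end (horizontal) against paired-end (vertical), for BRCA and AROM, with the 10 genes in red over all 13125 loci tested in grey and dotted lines at 2-fold. Tnfsf11 in BRCA lies at -2.93 and -2.74, near the lower end of the cloud, and the 4 genes past 2-fold in AROM lie along its lower left.

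The columns labelled CERM had 0 of the 11 loci past 2-fold from WT in both layouts in either direction, beside 0.427% lower and 1.11% higher over all loci. Medians were -0.26 and -0.02 for the set and -0.04 and 0.04 over all loci. With no pseudocount, Tnfsf11 and Tnfrsf11b were past 2-fold in both layouts, with levels in CERM of 0.472 and 0.443 of WT for Tnfsf11 and 0.418 and 0.419 for Tnfrsf11b. Summed luminal markers were 685 and 645 FPKM in CERM against 1019.8 and 823 in WT. CERM against AROM likewise had 0 loci past 2-fold in both layouts, beside 0.190% lower and 1.39% higher over all loci. In the paired-end columns alone, 3 genes were more than 2-fold higher in CERM than in AROM, with differences of 1.05 for Tnfrsf11a, 1.06 for Rspo1 and 1.14 for Sfrp1, where the median over all loci was itself 0.17. The single-end differences of these genes were 0.75, 0.78 and 0.28, beside an all-locus median of -0.02.

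BRCA against AROM had 3 of the 11 loci higher in both layouts (Tnfrsf11a, Tnfrsf11b and Sfrp1) and 0 lower, while 4.82% of all loci were higher and 1.46% lower. The all-locus medians of this comparison were 0.03 single-end and 0.21 paired-end, beside 0.12 and 0.31 for the set. Tnfsf11 was lower in BRCA than in AROM by the rule in the single-end columns alone, with differences of -1.44 and -0.72. As plain FPKM its BRCA level was 0.238 and 0.448 of that in AROM, and with a pseudocount of 0.1 or none it was called lower. Summed luminal markers were 1051 and 1044 FPKM in BRCA against 512 and 302 in AROM, and their part in the 3 higher genes was not tested. After quantile scaling none of the 3 higher genes was past 2-fold in both layouts, and Tnfsf11 was, in the lower direction. BRCA against CERM had 1 locus lower in both layouts, Tnfsf11 at -1.95 and -1.69, and 1 higher, Tnfrsf11b at 1.15 and 1.32, beside 1.34% of all loci lower and 1.84% higher.

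Summed basal and myoepithelial markers were 345 and 340 FPKM in BRCA, 392 and 419 in CERM, 342 and 211 in AROM and 411 and 320 in WT. Endothelial markers summed to between 111 and 164 FPKM in all 8 columns. Of these 6 markers, Lyve1 alone was at least 2-fold above WT by the rule, in all 3 models. It had 13.8 and 12.5 FPKM in BRCA, 10.9 and 7.30 in CERM, 8.89 and 5.51 in AROM and 2.67 and 2.25 in WT. Over all loci, 2.97%, 1.11% and 0.373% were higher than WT in BRCA, CERM and AROM. Macrophage markers summed to 863 and 828 FPKM in BRCA, 627 and 1184 in CERM, 483 and 360 in AROM and 797 and 642 in WT. Among them Csf1r and Mrc1 alone were past 2-fold between BRCA and WT in both layouts, beside 2.97% of all loci higher. Csf1r had 41.6 and 40.9 FPKM in BRCA against 19.3 and 13.6 in WT, and Mrc1 had 22.7 and 21.4 against 9.44 and 6.60. Skeletal muscle markers summed to 14207 and 13991 FPKM in BRCA, 33849 and 25904 in CERM, 31038 and 20319 in AROM and 10971 and 18294 in WT. Lymph node stroma markers were 529 and 473 FPKM in BRCA, 71.7 and 41.4 in CERM, 9.77 and 8.71 in AROM and 531 and 460 in WT, and most of each sum in BRCA, CERM and WT was Glycam1, a gene that mammary epithelium also uses. Beneath the near-equal BRCA and WT sums, Cxcl13 was higher in BRCA, at 15.2 and 13.4 FPKM against 2.59 and 1.56 in WT. Madcam1 was lower there, at 1.47 and 1.35 against 10.2 and 8.06. The part of these cells in the differences of the 11 loci was not tested.

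Other genes of progesterone response and of hormone-sensing luminal cells were examined as a list of 12, of which 11 were tested. Of these, 1 (Ramp3) passed the filter on low values through its BRCA columns alone. In BRCA, 2 of the other 10 were at least 2-fold below WT in both layouts and 1 above. Over all loci, 1.03% were below and 2.97% above. The 2 lower ones encode secreted signals. Areg, the estrogen-induced ligand amphiregulin, had 6.12 and 6.19 FPKM in BRCA against 36.2 and 30.5 in WT, and Calca, which encodes calcitonin and is induced by progesterone in this gland, had 34.7 and 32.9 in BRCA against 222 and 135 in WT. The higher one was Prom1, a surface marker of hormone-sensing luminal cells in mice, at 6.44 and 6.03 FPKM in BRCA against 2.26 and 1.97 in WT. The progesterone receptor gene Pgr had 0.654 and 0.667 FPKM in BRCA, 1.14 and 2.19 in CERM, 1.5 and 0.782 in AROM and 1.92 and 1.90 in WT, and passed 2-fold in no comparison on the log2(FPKM + 1) scale, although as plain FPKM its BRCA level was 0.340 and 0.351 of that in WT. In AROM, Calca alone of the 11 was past 2-fold from WT, beside 1.36% of all loci lower and 0.373% higher. It had 65.3 and 34.3 FPKM in AROM against 222 and 135 in WT. Against CERM, BRCA was lower for 3 of the 10 apart from Ramp3, beside 1.34% of all loci. These were Areg, Calca and the coactivator gene Cited1, which had 10.4 and 8.94 FPKM in BRCA against 29.6 and 40.4 in CERM. Medians of the list for BRCA minus WT, Ramp3 included, were -0.82 and -0.78.

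Downstream of RANK, a list of 15 genes of NF-κB signalling and mammary RANK targets was tested in full. In AROM, 14 of the 15 were below WT in both layouts, a count whose share over all loci was not computed. Medians of the list were -0.28 and -0.52, beside -0.00 and -0.08 over all loci. Of the 15, 2 were at least 2-fold lower, beside 1.36% of all loci. These were Elf5, a transcription factor of luminal progenitors and alveolar cells, at 39.0 and 21.1 FPKM in AROM against 108 and 90.0 in WT, and Id2, a regulator that RANK signalling moves to the nucleus in mice, at 38.5 and 26.5 in AROM against 81.4 and 78.3 in WT. Elf5 is also among the luminal progenitor markers, which summed to 103 and 62.2 FPKM in AROM against 224 and 182 in WT. In BRCA, 0 of the 15 genes passed 2-fold from WT, beside 1.03% of all loci lower and 2.97% higher. The medians were 0.10 and 0.21, beside 0.04 and 0.10 over all loci. The 3 with the largest mean difference were Ccnd1, the cyclin D1 gene, at 56.1 and 56.7 FPKM in BRCA against 38.0 and 34.2 in WT, Map3k14, the NF-κB-inducing kinase, at 4.32 and 4.54 in BRCA against 2.80 and 2.37 in WT, and Id2, which was lower, at 52.3 and 54.1 in BRCA against 81.4 and 78.3 in WT. Against CERM, BRCA was higher for Ccnd1 alone of the 15, with 23.8 and 26.4 FPKM in CERM, beside 1.84% of all loci. Against AROM, both BRCA and CERM were higher for Elf5 alone, beside 4.82% and 1.39% of all loci.

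Among 15 other Wnt ligands, 7 passed the filter on low values, 2 of them (Wnt1 and Wnt10a) through their BRCA columns alone. Of the 5 that did not rest on BRCA, 1, Wnt7b, was at least 2-fold higher in BRCA than in CERM, AROM and WT in both layouts. Over all loci, 1.84%, 4.82% and 2.97% were higher in these 3 comparisons. Wnt1, a β-catenin-activating ligand known as a mouse mammary tumour virus integration site, had 2.27 and 2.53 FPKM in BRCA, 0.0304 and 0.0466 in CERM, 0.135 and 0.0654 in AROM and 0.0579 and 0.0526 in WT. All 6 Wnt1 values outside BRCA were at most 0.135 FPKM, so the filter itself fixed the direction of its difference, which is given as a description. Wnt7b, another β-catenin-activating ligand, had 4.73 and 4.80 FPKM in BRCA, 1.03 and 1.45 in CERM, 1.85 and 1.20 in AROM and 1.86 and 1.89 in WT. Its BRCA minus WT difference, 1.00 and 1.01, lay on the 2-fold line. In the 3 comparisons without BRCA no locus of this list was past 2-fold.

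Among the genes that receive these ligands, 0 of 14 Wnt receptors passed 2-fold by the rule between any of the 3 models and WT. Nor did any of 5 R-spondin receptors and ubiquitin ligases (Lgr4, Lgr5, Lgr6, Rnf43 and Znrf3). Over all loci, 0.373% to 2.97% did so per comparison and direction. As plain FPKM, however, Rnf43 in AROM was at 0.458 and 0.263 of its WT level. Fzd5 in BRCA was likewise past 2-fold as plain FPKM, at 2.17 and 2.35 times its WT level. For AROM minus WT, medians of the 5 were -0.78 and -0.79, beside -0.00 and -0.08 over all loci. The other R-spondins, Rspo2, Rspo3 and Rspo4, did not pass the filter on low values and were not tested. BRCA was higher than AROM for 1 of the 14 receptors, Fzd5, at 4.32 and 4.33 FPKM against 1.54 and 1.04. For 2 of the 5, the R-spondin receptors Lgr4 and Lgr6, it was also higher. Lgr4 had 12.3 and 11.8 FPKM against 5.55 and 4.70, and Lgr6 had 12.0 and 13.0 against 5.41 and 4.07. Over all loci, 4.82% were higher in BRCA than in AROM. Of 12 β-catenin pathway transducers, with 15 loci, 0 passed 2-fold in any of the 6 comparisons, but 2 of the 3 loci of the kinase gene Gsk3b were listed at 0 in all paired-end columns and could not have been called. Apc, which helps to degrade β-catenin, was listed at 0 in the single-end BRCA column and at 8.75 FPKM in the paired-end one, against 5.72 and 4.95 in WT.

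Of 7 other secreted Wnt inhibitors tested, 1 (Dkk2) passed the filter on low values through its BRCA columns alone. Of the other 6, 2 were higher in BRCA than in WT, beside 2.97% of all loci. These were the Sfrp1 relatives Sfrp2, at 22.1 and 22.3 FPKM against 9.57 and 6.59, and Sfrp4, at 13.4 and 13.4 against 4.19 and 3.44. Another relative, Sfrp5, was higher in the columns labelled CERM, at 21.2 and 25.6 FPKM against 6.74 and 5.93 in WT, and was lower in BRCA, at 9.49 and 9.71 FPKM, than in CERM. Wif1, an unrelated Wnt-binding inhibitor, was lower in AROM, at 3.40 and 1.91 FPKM against 9.57 and 7.79 in WT, and both BRCA, at 11.3 and 11.3 FPKM, and CERM, at 7.92 and 5.69, were above AROM by the rule. Sfrp1, Sfrp2 and Sfrp4 were thus above WT in BRCA, beside the higher fibroblast marker sums given above, while Frzb, the gene of another secreted Frizzled-related protein, had 1.04 and 0.984 FPKM in BRCA, 4.20 and 3.10 in CERM and 1.62 and 2.82 in WT, past 2-fold between BRCA and CERM alone of these. Sfrp4 was also above CERM, where it had 4.41 and 2.97 FPKM. Fibroblast markers were above WT in the other models too, with sums of 1120.3 and 1762 FPKM in CERM and 1455 and 1179.6 in AROM. None of Sfrp1, Sfrp2 and Sfrp4 was past 2-fold from WT in both layouts in those models. The part of fibroblasts was not tested.

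Other Wnt target genes did not all lie as close to WT in BRCA as Axin2 did. Of 11 other target genes, 2 (Lef1 and Mmp7) passed the filter through their BRCA columns alone. Of the other 9, 3 were at least 2-fold higher in BRCA than in WT in both layouts, namely Tcf7, Nkd2 and Cd44. Over all loci, 2.97% were. The list was split, with 6 of the 11 above WT in both layouts, Lef1 and Mmp7 among them, and 5 below, 0 past 2-fold. Its medians of 0.55 and 0.71, the values of Ccnd1, thus rested on Lef1 and Mmp7. Of the other 9, 5 were below WT, and the middle gene was Lgr5, at -0.19 and -0.04. Among those below WT, Apcdd1 differed by -0.69 and -0.55 and Tnfrsf19 by -0.63 and -0.43. Nkd2, a feedback inhibitor that binds Dishevelled, had 10.1 and 9.50 FPKM in BRCA, 1.44 and 1.21 in CERM, 1.91 and 1.05 in AROM and 3.03 and 2.39 in WT. Lef1, a β-catenin partner, had 3.21 and 2.60 FPKM in BRCA, 0.405 and 0.251 in CERM, 0.309 and 0.171 in AROM and 0.202 and 0.137 in WT, and Mmp7, a matrix metalloproteinase, had 1.41 and 1.5 in BRCA and at most 0.459 elsewhere, both in a direction that the filter fixed. Lef1 and Tcf7 are also lymphocyte genes, and summed B cell markers were 41.3 and 39.5 FPKM in BRCA against 5.80 and 3.85 in WT, and of the 6, 4 passed the filter through BRCA alone and the other 2, Cd79a and Cd79b, were at least 2-fold higher. Summed T cell markers were 47.9 and 50.4 FPKM in BRCA against 27.3 and 24.2 in WT, with 1 of 8, Lck, at least 2-fold higher in both layouts, and no B or T cell marker was at 0. Their part in the Lef1 and Tcf7 differences was not tested. In AROM against WT, Myc alone of the 11 passed 2-fold, beside 1.36% of all loci lower and 0.373% higher. It had 19.1 and 11.8 FPKM in AROM against 41.9 and 37.6 in WT. Leaving out Lef1 and Mmp7, BRCA was above AROM for 3 of 9, Tcf7, Nkd2 and Cd44, beside 4.82% of all loci. BRCA was above CERM for 3 of 9, with Ccnd1 in place of Cd44, and below CERM for 1, Apcdd1. Over all loci, 1.84% were above CERM and 1.34% below.

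**Figure D5:**
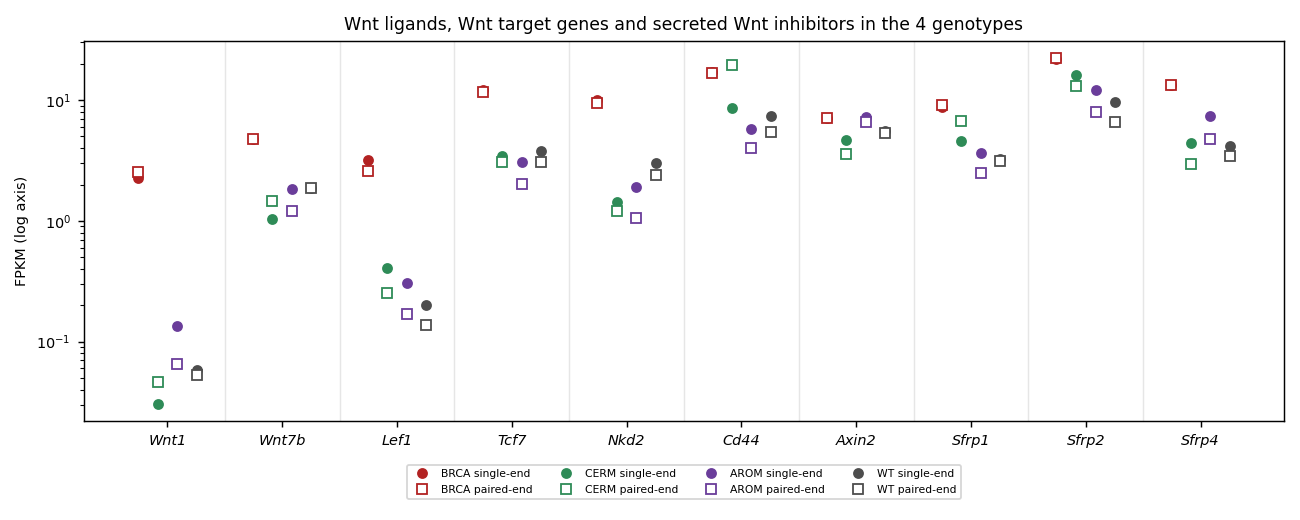
FPKM (log axis) of 2 Wnt ligands, 5 Wnt target genes and 3 secreted inhibitors in BRCA, CERM, AROM and WT, with filled circles for single-end and open squares for paired-end columns. Wnt1, Wnt7b, Lef1, Tcf7 and Nkd2 were highest in BRCA in both layouts, whereas Axin2 was at 7.09 and 7.08 FPKM in BRCA and 7.28 and 6.65 in AROM. For Wnt1 and Lef1 the filter on low values fixed this. The target genes drawn beside Axin2 are those at least 2-fold higher in BRCA than in WT, and the 5 listed ones below WT are not drawn.

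The loci whose levels were most like those of Tnfsf11, by Pearson's r of log2(FPKM + 1) over the 8 columns, were Slc39a8 (r = 0.997), Asb13 (r = 0.994), Tmprss6 (r = 0.982), Tcf7l2 (r = 0.979) and AI429214 (r = 0.979). The zinc transporter gene Slc39a8 had 2.15 and 2.13 FPKM in BRCA, 7.07 and 6.39 in CERM, 5.21 and 3.67 in AROM and 14.7 and 12.2 in WT. Those most like Wnt4 were Slc40a1, Bdnf, Zfp747, Gm4944 and Ggt1, with r between 0.916 and 0.945, and those most like Axin2 were Btbd19, Pold2, Ptprs, Cbx8 and Ranbp3, with r between 0.964 and 0.984. Within the set, Tnfsf11 had r = 0.70 with Wnt4, 0.66 with Rspo1 and -0.63 with Sfrp1, and Wnt4 had r = -0.81 with Axin2. These are descriptions of 8 pooled columns, in which the 2 layouts of a genotype may share libraries, so the 8 points are in effect 4 genotypes.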

How the data were processed

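Mouse mammary gland RNA of 4 genotypes was analysed from the authors' deposited table of FPKM values. The tools named in the submitters' processing notes are Cufflinks, TopHat, Trim Galore and FastQC, without versions, and the build is mm9. The table has 30843 loci and 8 columns, 1 per genotype and read layout. With no column per library, the limma fit planned for that case was not run, and n, depth and intervals could not be given. Loci with several gene symbols (585) or none (8119) were left out, and 13125 single-symbol loci with at least 1 FPKM in at least 2 columns were tested.

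Values were compared as deposited, as log2(FPKM + 1) ratios within a layout, so a fold change understates that of low genes. A locus was called at 2-fold or more in both layouts. The code for this rule was run on simulated columns with planted changes well past 2-fold and independent layouts. That run does not measure how often calls near 2-fold or at low levels are wrong. The 10 genes, the 19 lists beside them and the rules were chosen with earlier results of these data known. From each list other than cell markers, genes past 2-fold in both layouts were named, otherwise up to 3 with the largest mean differences. Of the cell markers, only some past 2-fold were named. For likeness, the 5 highest r were given. Pgr, Apc, Gsk3b, Tnfrsf19, Lgr5 and Rnf43 were named after their values were seen. Alternatives were pseudocounts of 0.1 and none, median-ratio and quantile scaling, 2 other filters, a 1.5-fold threshold and the mean WT column. Promoters are RefSeq's (GRCm38.p6). Python 3.11.15, pandas 2.3.3 and numpy 2.4.6 were used.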

Additional observations from a re-analysis of the deposited data

How the results depend on the processing

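The 3 calls of BRCA against WT were the same genes under all 8 alternatives tried. In AROM against WT, 2 loci (Rspo1 and Tnfsf11) in place of 4 were called when the mean of the 2 WT columns was the reference, and 3 under median-ratio or quantile scaling, without Tnfrsf11a; 5 were called with a pseudocount of 0.1, with none and at a 1.5-fold threshold, Tnfrsf11b being added. CERM against WT had 2 called with a pseudocount of 0.1 and 2 with none (Tnfrsf11b and Tnfsf11, lower), and 4 at a 1.5-fold threshold. CERM against AROM had 1 with no pseudocount (Tnfrsf11a, higher) and 2 at 1.5-fold. BRCA against AROM had 1 under quantile scaling (Tnfsf11, lower, with the 3 higher calls lost), and with a pseudocount of 0.1, with none and at 1.5-fold Tnfsf11 (lower) was added to those 3; BRCA against CERM had 1 when 1 FPKM was required in all 4 columns of a layout, since Tnfrsf11b was then not tested. Apart from that last one, the cause was not tested. Of all loci called in BRCA against AROM, 23.2% were lower as deposited, 35.1% after median-ratio and 34.0% after quantile scaling; in BRCA against WT, 25.7% and, after quantile scaling, 36.2%. Of 523 recomputed differences of the 11 loci, 119 moved by more than the gap between layouts. Of those at least 2-fold in their own layout, 0 changed sign. Of 192 list counts under 2 alternatives chosen after seeing the data, 11 moved by more than 1.5 times. No paired analysis was possible because the columns pool the libraries and carry no replicate numbers, so no library could be left out. The unknown depth limits genes near 1 FPKM most.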
